A study of Homo sapiens and Mus musculus with 61 samples.

Results

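The regions described here are 846 stretches of 300 bp, outside the β-globin gene cluster and away from gene starts, at which a guide RNA aimed at the cluster raised dCas9 occupancy strongly. They were taken from 16 tables, each setting one guide against the non-targeting guide sgGal4. A region was kept when it lay outside chr11:5200000-5330000 (hg19), its centre was more than 1 kb from every protein-coding transcription start, and the log2 ratio of mean linear guide level over mean linear sgGal4 level was 3 or more. They made up 846 of the 126308 regions in the 16 tables, or 0.929% of the 91080 distal regions outside the cluster. The 846 entries covered 841 distinct places. The 91080 were table entries too, and 77.5% of them overlapped a region of another single-guide table. Because the ratio chose the members, the ratios below are a description and carry no test.

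All cells were K562, a human erythroleukaemia line that transcribes embryonic and fetal globin genes, and all expressed biotinylated dCas9, the catalytically dead Cas9, which was recovered on streptavidin beads before sequencing. The guides with members were sgHS1-sg2, sgHS2-sg2, sgHS3, sgHS3-sg2, sgHS4, sgHS5, sgHBB, sgHBG, sgHBG-sg2, sgHBD-1kb and sg3'HS1, named after the hypersensitive sites of the locus control region, the globin genes and the 3' flank. The guides sgHS1, sgHS2, sgHS4-sg2, sgHS5-sg2 and sgHBB-sg2 had none, a pool of guides named sgHS1-5 was left out by the rule, and sgGal4 served as the shared control of every table. The labels give replicate numbers but not whether libraries came from separate cultures, nor whether the cells were a clone, and occupancy data hold no expression by which the cell line could be checked.

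The 16 tables held 36 guide libraries, between 1 and 5 per guide, with 7127 to 432553 reads in the listed regions, and 4 sgGal4 libraries. In every table sgGal4 replicates 1 and 2 had 41128 to 169968 listed reads, and replicates 3 and 4 had 6499 to 18647. Each deposited level was a straight line in log2 of whole reads plus 1, so the reads of each region could be recovered. Listed reads are not the depth of a library, which is not given. Counting intervals below use reads summed over the libraries of a group and cover counting error only. They leave out the spread between libraries and the choice of regions by their ratio.

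Cas9 binds DNA by first recognising a short protospacer-adjacent motif, the PAM, which for the common Streptococcus pyogenes enzyme reads NGG. It then pairs the guide RNA with the DNA beginning at the PAM-proximal end of the target, a stretch called the seed, and pairing there is known to suffice for stable binding of dCas9 even where the rest of the target does not match. No source used here gives the guide sequences. For each guide the region of highest ratio inside the cluster was therefore taken as the on-target region, and every 20-base stretch in it followed by NGG on either strand was a candidate site. The candidate whose seed, its 10 bases next to the PAM, occurred with an NGG in the most members of that guide was kept. As the candidate was chosen on these members, the shares over members describe and do not test.

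The on-target candidate sites of 9 guides are shown because the members' sequences are read against them. They were read from hg19 5' to 3' on the strand named, and capitals mark the seed and the PAM.
sgHS2-sg2, chr11:5301646-5301668, minus strand: gtggcctctaTACCTAGAAGCGG
sgHS3, chr11:5305921-5305943, minus strand: gagagatagaCCATGAGTAGAGG
sgHS3-sg2, chr11:5306222-5306244, minus strand: aggaatcattCTGTGGATAAAGG
sgHS4, chr11:5309558-5309580, minus strand: cccactcagcAGCTATGAGATGG
sgHS5, chr11:5312559-5312581, minus strand: tgcccccaccTTACAGGGACAGG
sgHBB, chr11:5248382-5248404, minus strand: ccctgtggagCCACACCCTAGGG
sgHBG, chr11:5271218-5271240, minus strand: gctaaactccACCCATGGGTTGG
sgHBD-1kb, chr11:5256970-5256992, plus strand: gtacaatagtATAACCCCTTTGG
sg3'HS1, chr11:5226266-5226288, plus strand: gctttagtgtAAGCGAGGTCAGG

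The sites below, in the most raised members of 5 guides and in the member with the most matching bases (MYRIP), show what these places had in common with the target. Here capitals mark the unbroken run of bases equal to the on-target site, counted back from the PAM, and the PAM itself. Not all top members had such runs. For the other guides with a candidate site, the most raised member had a run of 12 (UBE2N, sgHS2-sg2), 3 (SLC2A3, sgHS3-sg2), 2 (SAMD5, sgHS5) or 6 (USP20, sg3'HS1).
HIVEP2 region, sgHS3, chr6:142942972-142942994, minus strand: ggagtcTAGACCATGAGTAGAGG
GRM8 intron, sgHS3, chr7:126342664-126342686, minus strand: actactataACCATGAGTAGGGG
FAM83C region, sgHS3, chr20:33887748-33887770, minus strand: tcaggtggGACCATGAGTAGGGG
ABCC11 intron, sgHS4, chr16:48246016-48246038, minus strand: acttCTCAGCAGCTATGAGAAGG
MICAL3 intron, sgHS4, chr22:18400674-18400696, plus strand: aggtaagccCAGCTATGAGAAGG
MAD1L1 intron, sgHBB, chr7:1894914-1894936, plus strand: cggttgcggGCCACACCCTAGGG
FMNL1 intron, sgHBB, chr17:43304624-43304646, minus strand: ctggacacAGCCACACCCTAGGG
ELL2 intron, sgHBB, chr5:95254542-95254564, minus strand: atatacacacCCACACCCTAGGG
SYF2 region, sgHBG, chr1:25546793-25546815, plus strand: aaattgaaCCACCCATGGGTAGG
MYRIP intron, sgHBG, chr3:40108760-40108782, minus strand: gctcaaaTCCACCCATGGGTAGG
LEPR exon, sgHBD-1kb, chr1:66103185-66103207, minus strand: cttcacaAGTATAACCCCTTAGG
DYTN region, sgHBD-1kb, chr2:207594814-207594836, minus strand: tatacATAGTATAACCCCTTTGG

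The whole region of the highest sgHS3 member is given to show where the match sits. It is chr6:142942824-142943123 on the plus strand of hg19, and capitals mark the match and its PAM, which read on the minus strand.
HIVEP2 region: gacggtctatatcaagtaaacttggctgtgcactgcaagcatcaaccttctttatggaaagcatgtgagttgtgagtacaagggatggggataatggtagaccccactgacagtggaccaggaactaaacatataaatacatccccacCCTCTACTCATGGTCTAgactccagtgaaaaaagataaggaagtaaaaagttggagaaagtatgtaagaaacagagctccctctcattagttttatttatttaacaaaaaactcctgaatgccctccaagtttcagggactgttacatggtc

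The members were spread unevenly over the guides. sgHS2-sg2 had 150, sgHS5 and sg3'HS1 had 129 each, sgHBB had 115 and sgHS3 had 104. sgHBG had 68, sgHBD-1kb had 61, sgHS4 had 57 and sgHS3-sg2 had 28, while sgHBG-sg2 had 3 and sgHS1-sg2 had 2. sgHS2-sg2, sgHS3-sg2 and sgHBB each had a single library, so their members have no replicate check. Guides to the same element differed in this: the second guide to HS4, to HS5 and to HBB had none, and for HS1 and HS2 the second guide had members and the first had none. Only 5 places were members in 2 tables, and 0 in more.

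The median ratio of the 846 members was 3.59, and 596 lay between 3 and 4, 250 at 4 or more and 76 at 5 or more. For 163 members all 4 sgGal4 libraries had 0 reads, so their ratio rests on the level that the deposited scale gives to 0 reads. The median of the other 683 was 3.59. Set against a floor of 3 reads over the sgGal4 group, the 163 had a median of at least 24.8-fold more reads per listed read in the guide libraries. The members just inside the threshold were nearest to ZNF331, NAGLU and VEPH1, at 3.001 to 3.006. The regions just outside it, which are not members, were nearest to SKP1, CSF3 and TM4SF18, at 2.998 to 2.999. In 796 of the 846 members every guide library stood above every sgGal4 library, against 12.7% of all distal regions, a count fixed in large part by the rule.

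**Figure D1:**
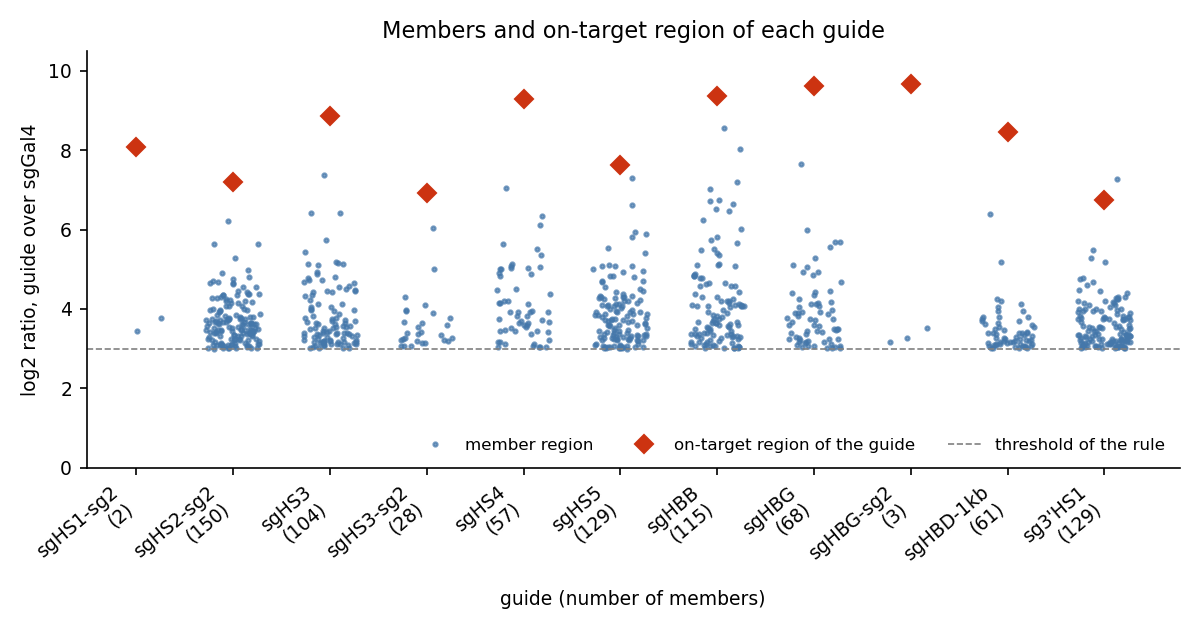
Each dot is a member region and each diamond the guide's own on-target region inside the cluster; the vertical axis is the log2 ratio of mean guide over mean sgGal4 level, and the dashed line is the threshold of 3. The diamond stands above every dot for each guide shown except sg3'HS1, whose USP20 member at 7.28 exceeded its on-target region at 6.74.

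For several guides the members together held a sizeable part of the listed reads. The share was small for sgHS1-sg2 (0.144% to 0.222%) and sgHBG-sg2 (0.13% to 0.225%). Under sgHS5 it was 13.2% in replicate 1 and 1.63% in replicates 2 and 3. In the sgHBB library 29.6% of the listed reads fell in its 115 members and 6.06% in its on-target region, while the sgGal4 libraries had 0.398% to 1.09% in the same members. The sgHS3 libraries had 8.28% to 19.5% in 104 members, against 0.28% to 0.681% in the sgGal4 libraries. In sgHS4 replicate 1 its 57 members held 8.94% of the listed reads and its on-target region 5.62%, and in replicate 2 they held 7.56% and 18.6%. In sg3'HS1 the members held 9.22% and 11.1%, against 0.468% to 0.667% in sgGal4. The on-target region of sg3'HS1 had 64 reads in replicate 1 and 1288 in replicate 2, so these libraries differed far more at the target than at the members.

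Of the 841 members of the 9 guides for which a candidate was found, 319 (37.9%) held the seed of their own guide followed by NGG. In the other regions of the same tables outside the cluster 953 of 81793 (1.17%) held it. The share was highest for sgHS4, where 47 of 57 members had the seed against 1.04% of the other regions, and for sgHS3-sg2, with 21 of 28 against 3.48%. It was 93 of 150 for sgHS2-sg2 against 4.32%, 60 of 115 for sgHBB against 1.27%, 48 of 104 for sgHS3 against 0.952% and 29 of 68 for sgHBG against 0.549%. The seed was rare among the members of sgHS5 (10 of 129, against 0.218%), sgHBD-1kb (7 of 61, against 0.304%) and sg3'HS1 (4 of 129, against 0.189%). For sgHS1-sg2 and sgHBG-sg2 no candidate seed occurred in any of their 2 and 3 members. Those of sgHS1-sg2 lay near PALMD, with 144 and 69 reads in the sgHS1-sg2 libraries against 2, 2, 0 and 2 in the sgGal4 libraries (3.76), and near DGKG, with 115 and 31 against 2, 1, 1 and 0 (3.45). The sgHBG-sg2 members had 13 to 49 reads in the sgHBG-sg2 libraries and 0 in all sgGal4 libraries, and the highest lay in an intron of the receptor gene NOTCH2 (3.52).

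The margin of the kept candidate over the next one differed between guides. For sgHS2-sg2, sgHS3-sg2, sgHBD-1kb and sg3'HS1 every other candidate seed was found in 0 members, although for sg3'HS1 the kept one had only 4. The next candidate had 1 member for sgHS4, 2 for sgHS5, 4 for sgHBG, 23 for sgHS3, where the kept one had 48, and 27 for sgHBB, where it had 60. Over the 6773 pairings of a member with the seed of a guide other than its own, 0 held it. A given string of 10 bases with its PAM is rare in any stretch of 300 bp, so this 0 tells little about the guides. All 4 bases occurred in the first place of the PAM, as AGG in 114 members, TGG in 97, GGG in 88 and CGG in 20. The seed without an NGG was rare everywhere, in 2 of the 841 members (0.238%), both under sgHS5, and in 0.0604% of the other distal regions.

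The share of regions with the seed climbed with the ratio in regions that had no part in choosing the candidate. Over the 9 guides 8 of 31631 distal regions with a ratio below 0 held the seed, counting a place once for each table that listed it. The share was 1.0% at 0 to 1, 4.85% at 1 to 2 and 15.4% at 2 to 3, and among the members it was 30.8% at 3 to 4, 47.1% at 4 to 5 and 72.4% at 5 or more. For sgHS4 the share at 2 to 3 was already 48.1% of 79 regions, and for sgHS3-sg2 it was 54.2% of 72. Seen from the other side, 319 of the 1232 distal regions with a seed were members (25.9%), against 0.881% of the distal regions without it, and 99.4% of the regions with a seed had a ratio of 0 or more. Without the members, which the ratio chose, the regions with a seed had a median ratio of 1.68, against -0.14 for all distal regions without it. Only regions that the authors kept are listed, and how they were called is not given. Places with a seed but little signal may be missing, so these shares and medians describe and do not test.

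**Figure D2:**
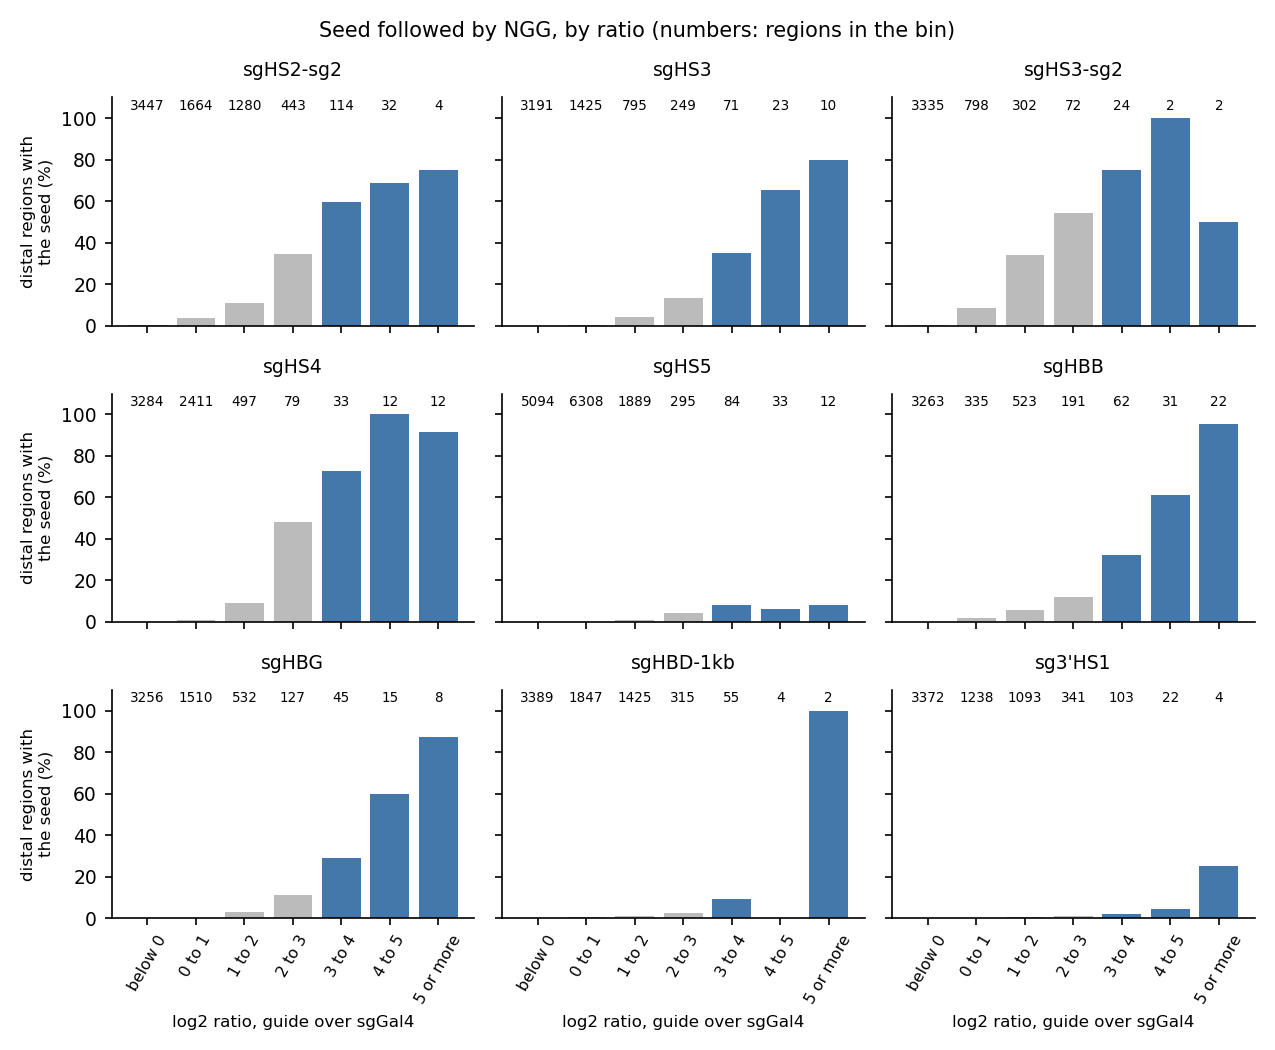
Bars give, for each of 9 guides, the percentage of distal regions that hold the guide's seed followed by NGG, by bins of the log2 ratio of guide over sgGal4; blue bins are members, grey bins are not, and the number of regions stands above each bar. The share climbs with the ratio for sgHS2-sg2, sgHS3, sgHBB and sgHBG up to 75%, 80%, 95.5% and 87.5% at 5 or more, and stays at 8.33% or less for sgHS5.

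With the guides pooled, longer matches went with higher ratios. Distal regions with a run of 0 to 4 matching bases next to an NGG had a median ratio of -0.47, and 0.23% of them were members. With a run of 8 the median was 1.58 and 12.6% were members, with 11 it was 2.32 and 31.9%, and with 13 or more it was 4.05 and 25 of 37. For sgHBB a run of 10 made 29 of 78 regions members and a run of 11 made 14 of 20. For sgHS4 the same runs made members of 10 of 83 and 24 of 56 regions. Not every guide showed a steady rise. For sgHS3-sg2 the median ratios at runs of 10, 11 and 12 were 1.36, 1.21 and 1.41, and 0.77 in the 2 regions with 13 or more. For sgHS5 22.2% of regions with a run of 8 were members, and 12.5% of those with 9. For sg3'HS1 it was 8.23% at a run of 6 and 4.8% at 7. The longest run was 16 bases, in the ABCC11 intron under sgHS4. The most matching bases over the 20-base site were 18, in the MYRIP intron under sgHBG, which had 165, 1, 85 and 147 reads in the sgHBG libraries against 2, 6, 0 and 1 in the sgGal4 libraries (4.17). Replicate 2 of sgHBG lay within the sgGal4 reads there. Members with the seed matched at a median of 13 of the 20 bases.

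The matches lay at the centres of the regions, which the rule did not use. The edge between match and PAM was a median of 7 bp from the region centre in the 319 members with a seed, and 293 of them (91.8%) had it within 25 bp. In the 913 other distal regions with a seed the median was 14 bp. The sites stood on the plus strand in 156 of the 319 members. In the on-target regions themselves, the kept sgHS2-sg2 site had this edge 94 bp from the centre, and the kept sites of the other guides 6 to 32 bp.

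**Figure D3:**
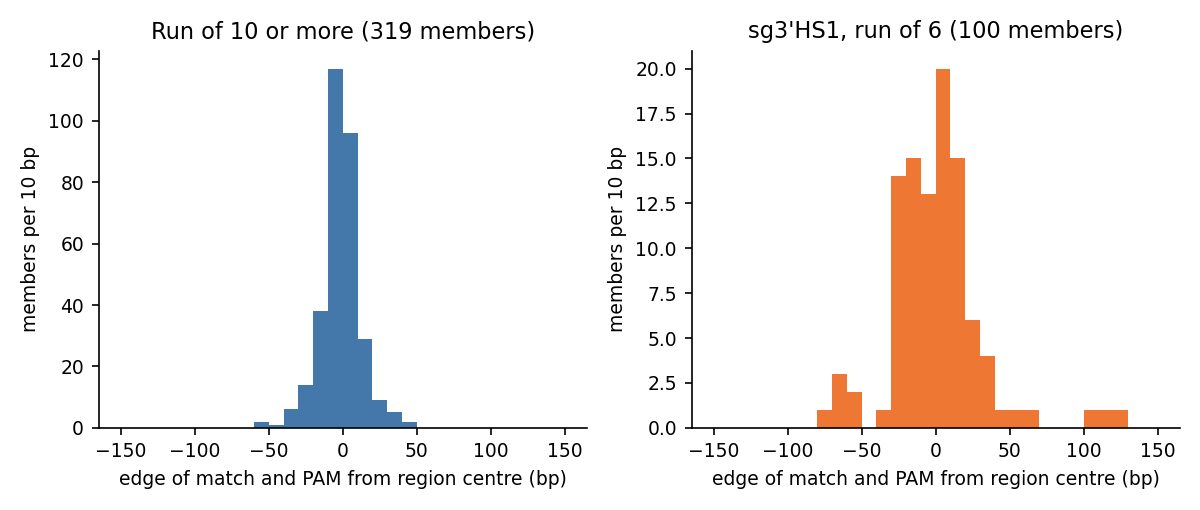
Histograms of the signed distance in bp, in 10-bp bins, from the region centre to the edge between the matching run and its PAM, for the 319 members with a run of 10 or more (left) and for the 100 sg3'HS1 members with a run of 6 (right). Both peak at the centre, at a median distance of 7 bp for the runs of 10 or more.

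The authors' deposited table tags 11 of the 846 members as off-target, under 6 guides. Over the 16 tables, 27 of the 126308 regions are so tagged in the authors' deposited table. All 11 of the members tagged in the authors' deposited table held the seed of their guide, with 16 to 18 matching bases of 20. By the nearest gene assigned here, those tagged in the authors' deposited table lay nearest to GRB14 (sgHS2-sg2), CORO1C, LENG1 and PTPRD (sgHS3) and ZFP36L1 (sgHS3-sg2). The others tagged in the authors' deposited table lay nearest to MCTP2, ABCC11, MAP1S and AFDN (sgHS4), MYRIP (sgHBG) and LEPR (sgHBD-1kb). Among the 319 members with a seed 28 had 16 or more matching bases.

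Under sgHS3 48 of 104 members held the seed, and under sgHS4 47 of 57. The most raised sgHS3 member lay 215211 bp from HIVEP2, which encodes a zinc-finger transcription factor, and had 2031, 291 and 369 reads in the 3 sgHS3 libraries and 1, 4, 1 and 1 in the sgGal4 libraries (log2 ratio 7.38; SD of the sgHS3 log2 levels 1.38). Its run of 14 bases was the longest of that guide, shared by an intron of PPP4R4. An intron of GRM8, a glutamate receptor gene, had 920, 142 and 157 reads against 2, 7, 1 and 0 (6.41). Replicate 1, the library with the most listed reads of the 3, had the most reads at both, and without it sgHS3 had 57 members, 21 with the seed, of which 55 were among the 104. The most raised sgHS4 member, in an intron of the transporter gene ABCC11, had 2155 and 952 reads in the sgHS4 libraries and 0, 0, 2 and 0 in the sgGal4 libraries, or 1119-fold more per listed read (95% exact interval 309 to 9243). An intron of MAP1S, whose product binds microtubules, had 793 and 120 reads against 0 in all 4 sgGal4 libraries, at least 219-fold higher per listed read. All 12 sgHS4 members between 4 and 5 held the seed.

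The second guides to HS2 and HS3 had a single library each, with highest ratios of 6.21 and 6.03 and median member ratios of 3.61 and 3.38. The highest sgHS2-sg2 member, 12251 bp from UBE2N, had 310 reads in the sgHS2-sg2 library against 0 in all 4 sgGal4 libraries, at least 158-fold higher per listed read, and held a run of 12. The longest runs of this guide, 14 bases, lay in introns of SHROOM3 and PLXDC1. Under sgHS3-sg2 the highest member, an intron of the glucose transporter gene SLC2A3, had 472 reads against 0, 0, 0 and 1 in the sgGal4 libraries, or 1099-fold more per listed read (95% exact interval 196 to 43491). Its run was 3 bases, so the strongest member of this guide was without the seed. The next members, near GCM1 and in NOL4, had 356 and 175 reads against 5 and 4 reads over the sgGal4 libraries, and both held runs of 10.

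Among the guides to the globin genes, sgHBB and sgHBG had the highest top members of all guides, at 8.56 and 7.65. The top members of sgHBD-1kb and sgHBG-sg2 were at 6.39 and 3.52. Under sgHBB an intron of MAD1L1, a spindle checkpoint gene, had 2705 reads in the sgHBB library against 1, 7, 0 and 0 in the sgGal4 libraries (8.56). Introns of FMNL1, an actin-regulating formin, and ELL2, an elongation factor, had 1684 and 1420 reads against 4 and 7 reads over the sgGal4 libraries (8.04 and 7.20). Of the 22 sgHBB members at 5 or more, 21 held the seed. Under sgHBG a region 12178 bp from SYF2 had 975, 76, 406 and 851 reads in the 4 sgHBG libraries against 0 in every sgGal4 library, at least 504-fold higher per listed read. Replicate 2 was the lowest in reads there and was also the shallowest sgHBG library. An exon of LEPR, the leptin receptor gene, led sgHBD-1kb with 410 and 267 reads against 1, 2, 1 and 0 (6.39), and a region near DYTN followed with 159 and 80 against 2, 1, 0 and 0 (5.18), or 90.5-fold more per listed read (95% exact interval 30.6 to 442). These were the only sgHBD-1kb members at 5 or more, and both held the seed.

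**Figure D4:**
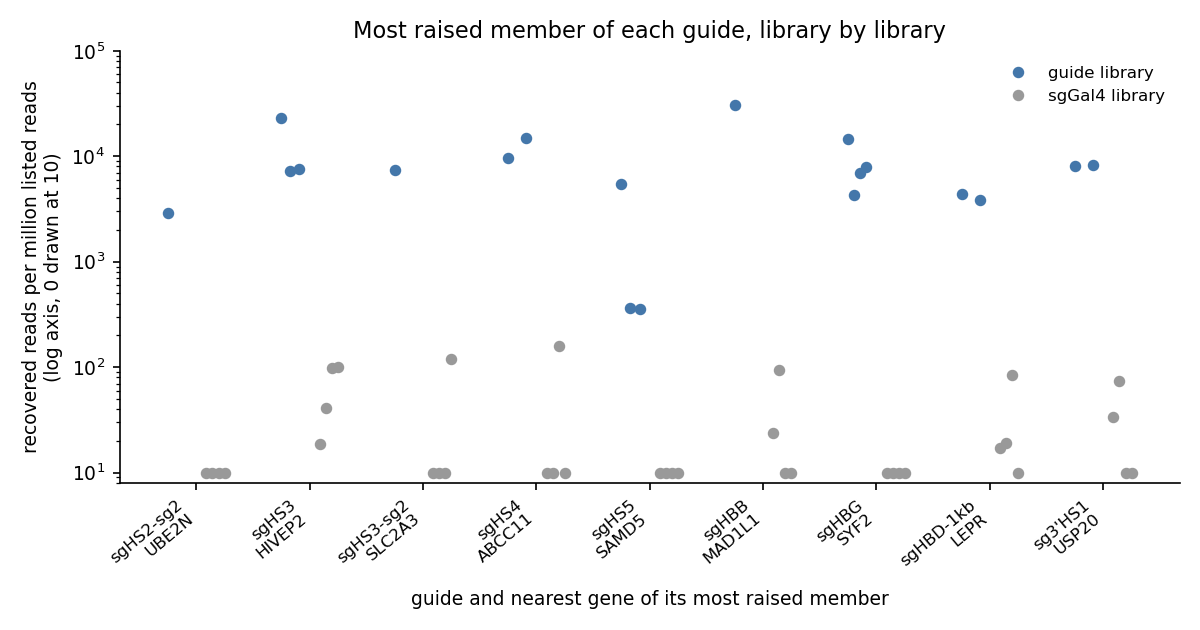
Recovered reads scaled to equal totals of listed reads, on a log axis with 0 drawn at 10, at the most raised member of each of 9 guides; blue dots are the guide's libraries and grey dots the 4 sgGal4 libraries. Every blue dot stands above every grey dot, and for sgHS5 (SAMD5) replicate 1 with 862 reads stands apart from replicates 2 and 3 with 156 and 88.

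The sgHS5 members fell into groups by sequence. Only 10 of 129 held the seed, while 56 held a run of 8 or more bases. Of the other 73 members, 37 held a different string of 10 bases followed by NGG, found as the most frequent one among them, and 2 sgHS5 members held it without NGG. With NGG it sat a median of 6 bp from the region centre. The sites in the 4 most raised of these members, and in NEURL1 as one with another PAM, are shown with the place of the string in the cluster, with the shared string in capitals and, in the members, the PAM.
HS5, chr11:5312570-5312592, minus strand: ttgaaggtggGTGCCCCCACctt
SAMD5 region, sgHS5, chr6:147716502-147716524, minus strand: agagcccaggGTGCCCCCACAGG
PDCD6IP region, sgHS5, chr3:33961871-33961893, minus strand: cagctagctaGTGCCCCCACAGG
N4BP2L1 intron, sgHS5, chr13:32983033-32983055, plus strand: agcacttcagGTGCCCCCACAGG
PLTP region, sgHS5, chr20:44551341-44551363, plus strand: gtcatgggagGTGCCCCCACAGG
NEURL1 intron, sgHS5, chr10:105324041-105324063, plus strand: cctgaggaggGTGCCCCCACTGG

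The string occurred 1 time in the cluster, inside the HS5 on-target region, where no NGG followed it. There it shared 9 bases with the PAM-distal end of the kept sgHS5 site. Of the 10 most raised sgHS5 members, 6 held it, among them the highest, 113318 bp from SAMD5, with 862, 156 and 88 reads in the 3 sgHS5 libraries and 0 in all 4 sgGal4 libraries (at least 132-fold higher per listed read). Of all regions listed for sgHS5, 100 outside the cluster held the string with an NGG. The 59 of them with a ratio below 3 had a median ratio of 1.94, against 0.27 for all sgHS5 regions outside the cluster below 3. By contrast, each of the other 15 single-guide tables held 1 or 0. The table of sgHS5-sg2, the second guide to HS5, held 0. The string's members had a median ratio of 4.11 and those with a run of 8 or more 3.54. None of the 129 had both. What links the string to this guide was not tested.

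The sgHS5 ratios leaned on replicate 1, the library with the fewest listed reads of the 3. Members with the string held 4.78% of its listed reads, against 0.688% in replicate 2 and 0.678% in replicate 3, and 0.0612% to 0.0912% in the sgGal4 libraries. Those with a run of 8 or more held 5.15%, 0.465% and 0.448%, against 0.0912% to 0.145% in sgGal4. Without replicate 1 only 15 members remained, 9 with the string and 1 with a run of 8 or more.

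The sg3'HS1 members showed a shorter match. Of the 129, 112 (86.8%) held a run of 6 or more bases of the kept site next to an NGG, and in 100 the run was exactly 6. A run of 6 or more was present in 22.4% of all distal regions of that table and in 1.66% of those with a ratio below 0. The runs lay a median of 14 bp from the region centre in the members, and 74 bp in the regions with a ratio below 0. Chosen without replicate 1, with its few reads on target, there were 118 members, 80.5% of them with such a run, and without replicate 2 there were 143 and 86.0%. The highest sg3'HS1 members, in exons of USP20, which encodes a deubiquitinase, and of AKNAD1, show the short match in capitals with the PAM.
USP20 exon, sg3'HS1, chr9:132625545-132625567, plus strand: agaagctggtctctGAGGTCTGG
AKNAD1 exon, sg3'HS1, chr1:109373343-109373365, plus strand: cccagcaagcagctGAGGTCCGG

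The USP20 exon had 1205 and 241 reads in the sg3'HS1 libraries against 2, 8, 0 and 0 in the sgGal4 libraries (7.28), and the AKNAD1 exon had 331 and 32 against 0, 0, 1 and 0 (5.48), or 392-fold more per listed read (95% exact interval 69.9 to 15519). Both libraries were above all 4 sgGal4 libraries at each. Over the 9 guides a run of 6 or more was held by 638 of the 841 members (75.9%), by 10.2% of all distal regions and by 56.1% of those with a ratio of 2 to 3.

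Some sgHBG members shared sequence with each other. Of the 68, 27 fell into 5 sets of 2 to 14 regions linked by shared stretches of sequence, called copies here. The median GC content of the sets ran from 31.8% to 74.2%. The labels state that only reads with a single genomic location were kept. The set of 14 copies lay on 8 chromosomes, 11 of them within 500 kb of a chromosome end, with ratios of 3.04 to 3.93. It had 22 to 55 reads in sgHBG replicate 1, 4 to 14 in replicate 2, 18 to 46 in replicate 3 and 31 to 73 in replicate 4, and 12 of the copies had 0 reads in all sgGal4 libraries. Its longest match to the kept site was 5 bases. A set of 6 copies with a median GC content of 74.2% had ratios of 4.08 to 5.06, and 5 of them lay within 500 kb of an end. In all, 20 of the 68 sgHBG members (29.4%) lay within 500 kb of a chromosome end, against 1.09% of all distal regions. A pair of copies with a seed, on 1 chromosome, was another of the 5 sets, at 3.91 and 4.12. Of the 5 places that were members in 2 tables, 3 paired sgHBG with sgHS3-sg2: an AAMDC intron (4.92 under sgHBG and 3.96 under sgHS3-sg2), a region near PDCD2 (5.06 and 3.64) and a region near OR4F21 (4.68 and 3.21). These tables share the sgGal4 libraries.

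Over all guides the 319 members with a seed had a median GC content of 43.7% and the 522 without it 50.3%, but this gap was not shared by every guide. It was 43.3% and 43.8% under sgHS3, 45% and 45.7% under sgHS4 and 48.7% and 50.3% under sgHS5, and under sgHBB 48.7% and 46.3%, the other way round. Of the 522 members without a seed, 125 belonged to sg3'HS1. The median was lowest for the sgHBD-1kb members with a seed (34.3%) and highest, among guides with over 50 members, for the sg3'HS1 members without one (57.3%).

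The members' place along genes was close to that of the distal regions at large. Introns held 354 members (41.8%, against 37.4% of all distal regions) and intergenic sequence 425 (50.2% against 53.8%). Coding exons held 41 (4.85% against 6.20%) and untranslated exons 26 (3.07% against 2.55%). The median distance to the nearest protein-coding start was 22710.5 bp, with 24400 bp over all distal regions, and the median GC content was 47.7%, with 48.3% over all. The sg3'HS1 members lay nearer to starts, at a median of 12972 bp, with 22671 bp over the distal regions of that table. Of 264 regions within 1 kb of a start with a ratio of 3 or more under the same guides, 20 (7.58%) held the seed. The makeup by guide differs from that of the members: 105 of the 264 belonged to sg3'HS1, where 4 held the seed, or 3.81%, against 3.10% of its members. In every other guide the share near starts was below that among its members. It was 26.3% against 62% for sgHS2-sg2, 6.45% against 46.2% for sgHS3, 23.8% against 52.2% for sgHBB and 0% against 42.6% for sgHBG.

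Members close to erythroid regulators were few. Of 19 such genes, 3 were the nearest gene of 4 members in all, 0.473% of the members against 0.265% of all distal regions. An intron of LMO2, a bridging subunit of the TAL1 complex, had 71 and 31 reads under sgHBD-1kb against 0, 3, 0 and 1 in the sgGal4 libraries (3.69). An exon of KLF1, the erythroid Krüppel-like factor, had 91 reads in the sgHBB library against 5, 10, 0 and 0 (3.31). The 2 exonic regions of TAL1 under sg3'HS1 had 3 and 59, and 5 and 98 reads in replicates 1 and 2, against 1, 2, 3 and 0, and 0, 0, 5 and 4 in the sgGal4 libraries. They rested on replicate 2: without it their ratios were -1.05 and -1.42.

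The members of a guide were mostly listed in its own table only. Of the 846, 148 (17.5%) overlapped a region in another single-guide table, against 77.5% of all distal regions. Their 433 overlaps had a median ratio of 0.56 there, with 10 at 3 or more, and the overlaps of all distal regions had a median of -1.23. None of the 104 sgHS3 members was listed under sgHS3-sg2, which listed 58.8% of the distal sgHS3 regions, and none of the 28 under sgHS3, which listed 74.8%. Between other guides to one element, 2 sgHBB members were listed under sgHBB-sg2, 2 sgHBG members under sgHBG-sg2, 1 sgHS5 member under sgHS5-sg2 and 1 sgHS2-sg2 member under sgHS2. A table lists only the regions its authors kept, so a region that is missing has no value, and all tables share the sgGal4 libraries. The rule chose members by their ratio to these shared libraries, which fixes the listing shares in part, here and in the pool below. They describe and do not test.

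The pool sgHS1-5 gave values in libraries the rule had not used, although the sgGal4 libraries are the same. Of the 104 sgHS3 members, 96 (92.3%) were listed in the pool table, against 82.1% of the distal sgHS3 regions, with a median pool ratio of 2.86, and all 96 had a pool ratio of 1 or more, as did 21.1% of all pool regions outside the cluster. A pool ratio of 3 or more was reached by 37 of them, against 0.355% of all. Of the 129 sgHS5 members 54 (41.9%) were listed, against 50.4% of the distal sgHS5 regions, with a median of 1.98. By sequence these were 41 of the 56 with a run of 8 or more and 0 of the 37 with the other string. The 150 sgHS2-sg2 and 28 sgHS3-sg2 members had 7 and 1 listed, or 4.67% and 3.57%, against 53.4% and 79.6% of the distal regions of those guides. Of the 57 sgHS4 members 9 (15.8%) were listed, against 73.0% of the distal sgHS4 regions, with a median of 1.12. Of the 376 members of the globin gene and 3'HS1 guides, 54 were listed, at a median of 0.95, against a median of 0.48 over all pool regions outside the cluster.

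At the HIVEP2 region the pool libraries had 491, 859, 7, 11, 520 and 814 reads, against 1, 4, 1 and 1 in the sgGal4 libraries. Pool replicates 3 and 4 had the fewest reads there and also the fewest listed reads. In limma the log2 difference was 5.28 ± 0.82 (SE), with a Benjamini-Hochberg adjusted p of 0.0346. The rule chose members with these same sgGal4 libraries, so the p-values of members in the pool are fixed in part by that choice. It was the only member of an HS guide raised at an adjusted p under 0.05, of 168 listed, against 0.0533% of all pool regions, and 125 of the 168 were raised at an unadjusted p under 0.05, against 21% of all pool regions and 24 of the 54 listed members of the other guides. Of the 54 listed members of the other guides, 1 was also raised at an adjusted p under 0.05, under sg3'HS1. The count for the HS guides was 78 without sgGal4 replicate 3 and 84 without sgGal4 replicate 4, the shallow ones. There 7.88% and 9.01% of all pool regions were raised as well. The count for the HS guides was 2 and 3 without pool replicates 3 and 4. It was 0 when any of the 6 other libraries was left out. The sgHS3 members held 1.88%, 1.92%, 0.751%, 0.636%, 6.51% and 11.7% of the listed reads in pool replicates 1 to 6, against 0.17% to 0.358% in the sgGal4 libraries. All 6 pool libraries were above all 4 sgGal4 libraries.

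The seeds were also present in pool regions that were not members. Of 73 such regions with the sgHS3 seed, 64 had a pool ratio of 1 or more (median 1.74), and of 15 with the sgHS5 seed, 11 did (median 1.35). The seeds of sgHS2-sg2 and sgHS3-sg2 each occurred in 1 pool region, members included, at -0.88 and -0.19, and those of sgHBG and sgHBD-1kb in 0.

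**Figure D5:**
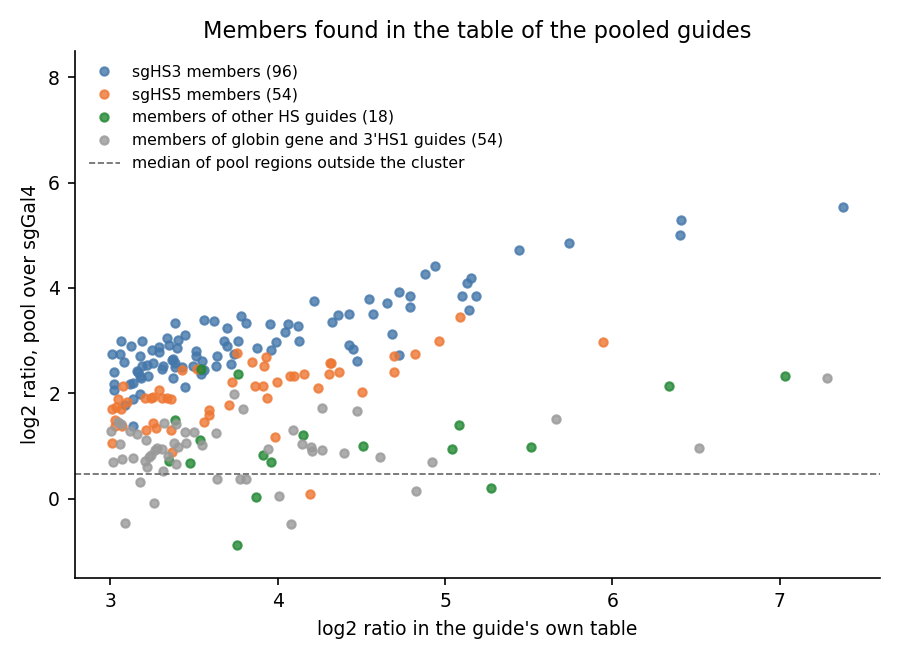
Each dot is a member listed in the pool table; the horizontal axis is its log2 ratio in its own guide's table and the vertical axis its log2 ratio of pool over sgGal4, and the dashed line is the median of pool regions outside the cluster (0.48). The 96 sgHS3 members lie between 1.37 and 5.53 on the vertical axis, and members of the globin gene and 3'HS1 guides between -0.48 and 2.30.

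Set against sgGal4 in their own table, 405 of the 846 members were raised by limma, with a log2 difference of at least 1 and a Benjamini-Hochberg adjusted p under 0.05, where 1.88% of all regions of the 16 tables were. The rule used the same contrast, so nothing is read from this count. Of the 405, 170 belonged to the 3 guides with a single library, whose spread comes from the sgGal4 libraries alone. The count was 244 when replicate 1 of every replicated guide was left out.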

How the data were processed

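CAPTURE-ChIP-seq of biotinylated dCas9 in K562 cells was read from 17 deposited tables of 300-bp regions. Reads with a single location in hg19 were kept, per the labels; Bowtie 1.0.0 and Picard are named in the submitters' processing notes. How regions were called and levels scaled is not given in the sources used here. The deposited library columns hold log2 levels, each a straight line in log2(reads + 1), from which whole reads were recovered for 100% of values. The authors' log2 M values equal the log2 ratio of mean linear levels recomputed here.

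Distances ran from region centres to protein-coding transcript starts (GENCODE 44 lifted to GRCh37). limma 3.58.1 (R 4.3.3) was fitted to the log2 levels of each table without trend or block, with Benjamini-Hochberg adjustment over the table. The seed search was exact, on both strands; it and the limma step were tested on simulated data. Members, lists and named regions were chosen with earlier results of these data known. For each guide the highest 3 and the longest 2 matches were eligible for naming. So were regions on either side of the threshold and members near 19 erythroid genes. The shared string under sgHS5 and the leave-one-out of the seed share were chosen after seeing the data. Chromosome 8 members entered every count, but their sequences are not printed; repeat annotation was not used.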

Additional observations from a re-analysis of the deposited data

Results flagged for a closer look

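In 1 of the 19 groups of 4 or 6 samples checked for a single far value, a sample stood apart. It was the member near C16orf95 under sgHBG, which had 68, 3, 59 and 93 reads in the 4 sgHBG libraries against 3, 2, 1 and 0 in the sgGal4 libraries. The gap from replicate 2 to the nearest other sgHBG library was 0.854 of the group's range of log2 levels. About 1 group in 20 is marked in this way by chance. Replicate 2 was the shallowest sgHBG library.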

How the results depend on the processing

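The number of members was 846 and became 1345 with differences of mean log2 levels, 423 with recovered reads scaled to equal totals, 250 at a ratio of 4 or more, 1289 without sgGal4 replicate 3 and 1424 without sgGal4 replicate 4. Leaving out a library gave 637 to 1424 members. The seed share was 37.9% and became 49.9% with 8 bases, 13.7% with 12 bases, 60% for the 10 highest members of each guide and 54.8% at a ratio of 4 or more, with 31.1% to 42.1% when a library was left out. The members raised in limma numbered 405, with 589 under a replicate block, 679 with trend, 722 with recovered reads and 244 to 405 without a library. For the pool, 1 member of an HS guide was raised, with 0 under the replicate block, 50 with trend, 60 with recovered reads and 0 to 84 without a library. The cause of these shifts was not tested. Deviations of same-numbered libraries from their group means had correlations of -0.25 to 0.22. With 2 guide libraries these deviations mirror each other, so the values cannot show whether the numbers pair libraries. Of 55 named regions, 3 changed sign, all without replicate 2: both TAL1 regions under sg3'HS1 (-1.05 to 4.66 and -1.42 to 4.15 over all libraries left out) and the CSF3 region under sgHS4 (-1.31 to 3.96). The sgGal4 replicates 3 and 4 had few reads, and every ratio uses them. Repeat content was not analysed here.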
